A study of Mus musculus with 12 samples.

Results

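Ephrins and their Eph receptors were followed together with Nr2f2, a regulator of vein identity, in endothelial cells grown from mouse embryonic stem cells at 2 oxygen levels, with and without blockade of Notch activation. The set holds 8 genes taken by symbol, the ephrins Efnb2, Efna1 and Efnb1, the Eph receptors Ephb4, Epha2, Ephb3 and Ephb2, and Nr2f2. Of these, 7 have a named probe, out of 16593 genes on the array that do, and they take 9 of its 25697 probes. Ephb2 was paired with no probe in the annotation used.

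All 12 samples came from 1 cell line, CCE (strain 129/Sv), which the labels give as wild type and male. It was grown as embryoid bodies for 4 days, sorted for Flk1, the VEGF receptor that marks vascular progenitors, and cultured on collagen IV for 4 more days. That last culture was at 21% oxygen (normoxia, 3 samples), at 21% oxygen with 4 µmol/l L-685.458 (3 samples), at 1.5 to 2% oxygen (hypoxia, 3 samples) or at 1.5 to 2% oxygen with 4 µmol/l L-685.458 (3 samples). L-685.458 inhibits gamma-secretase, the protease that releases the active intracellular part of Notch receptors. RNA was taken from cells sorted for CD31, an endothelial surface protein, and hybridised to 1 Illumina bead array per sample. The cells share 1 stem cell line and never lay in an artery or a vein, which limits them as a model of either vessel. The series calls the replicates biological, but the labels do not say what separates them.

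Ephrins are ligands held in the cell membrane, so they signal only between touching cells, and they signal in both directions: forward through the Eph receptor, a tyrosine kinase, and in reverse into the cell that bears the ephrin. In the embryonic vasculature ephrin-B2 marks arterial and EphB4 venous endothelium, and this pair keeps arteries and veins apart. Notch signalling is known to promote Efnb2 and to restrain the venous programme, while Nr2f2, a nuclear receptor also called COUP-TFII, represses Notch components in veins. A-type ephrins are tethered by a lipid anchor and mostly bind EphA receptors.

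Endothelial markers were present as the label says. Of 14 endothelial marker genes listed, 13 were measured, 12 of them detected on every array, and none passed the test in any comparison. Each array detected 13085 to 13901 probes, and the 14599 probes detected on at least 3 arrays were tested. Replicate 3 stood apart: 2863 probes (19.6%) differed between replicate 3 and replicates 1 and 2 of the same group by the test of limma. Of the 6 measured members 0 passed in that comparison, and the largest difference was that of Nr2f2 (0.70 on the log2 scale, SE 0.24, limma adjusted p = 0.0646). Markers of pluripotent cells were bright on some arrays: the summed signal of the 10 measured ones was 9281 to 25746 in normoxia, 3050 to 21709 with the inhibitor, 9143 to 10693 in hypoxia and 1973 to 7873 in hypoxia with the inhibitor. Replicate 3 gave the low end in every group, and only in hypoxia was another array close to it (9426 for replicate 1). All 10 had a lower mean in hypoxia and with the inhibitor, and 0 passed the test. The changes below run beside these differences, and the part of remaining pluripotent cells in them was not tested. In RNA from a whole sorted sample, fewer cells of a type and less RNA per cell cannot be told apart.

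Of the 8 genes, 6 were detected, each by 1 probe on all 12 arrays. These are Efnb2, Efna1, Efnb1, Ephb4, Epha2 and Nr2f2. Signals are on the log2 scale after background correction and quantile normalization, and the lowest signal that counted as detected lay at 5.08 to 5.24. The probe for Ephb3, a receptor for B-type ephrins, was detected on 0 of 12 arrays (log2 signal 4.42 to 4.80), so no level of Ephb3 was measured. Nr2f2 has 3 probes, 2 of them annotated to 1 RefSeq transcript and the other to a different one. One of that pair was detected on all 12 arrays, its partner on 1 only, hypoxia with inhibitor 3, at 5.48, and the remaining probe on 0. Signals of different probes do not rank the transcripts.

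**Figure D1:**
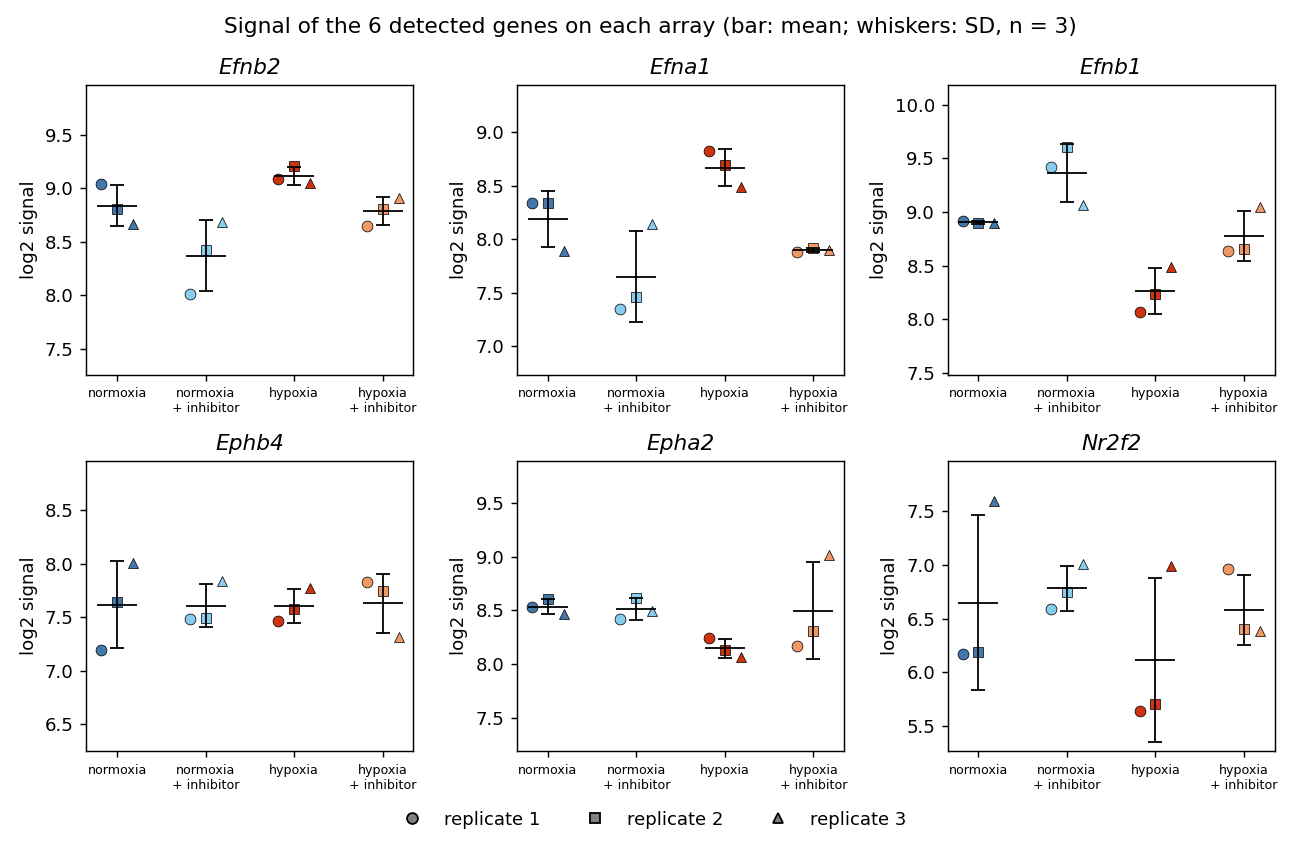
Log2 signal (vertical axis) of the 6 detected genes on each of the 12 arrays, by group. Points are arrays, with the shape giving the replicate number, the bar is the mean and the whiskers are the SD of 3 arrays. By group means Efnb2 and Efna1 are highest in hypoxia and lowest in normoxia with inhibitor. The mean of Efnb1 is highest in normoxia with inhibitor and lowest in hypoxia.

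The differences of Efnb1 with oxygen and with the inhibitor had the opposite sign to those of Efnb2 and Efna1. Efnb1 was the 1 member that passed the test, and it was lower in hypoxia. Efnb2 and Efna1 had their highest means in hypoxia without the inhibitor and their lowest in normoxia with it. The order of the group means was hypoxia, normoxia, hypoxia with inhibitor, normoxia with inhibitor for both. For Efnb1 it was normoxia with inhibitor, normoxia, hypoxia with inhibitor, hypoxia, so the ends were exchanged and the middle pair kept its order. For Efnb2 and Efna1 the hypoxia arrays lay above all normoxia arrays, while the next neighbours in the order overlapped. For Efnb1 the outer neighbours did not overlap (normoxia with inhibitor above normoxia, and hypoxia with inhibitor above hypoxia), and the middle pair did.

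Efnb2 encodes ephrin-B2, the arterial ligand. It lies at chr8:8617235-8661242 in GRCm38.p6. Its log2 signals for replicates 1, 2 and 3 were 9.04, 8.81 and 8.66 in normoxia (mean 8.84 ± 0.19, SD, n = 3) and 9.09, 9.21 and 9.05 in hypoxia (9.11 ± 0.08). With the inhibitor they were 8.02, 8.42 and 8.68 in normoxia (8.37 ± 0.34) and 8.65, 8.80 and 8.91 in hypoxia (8.79 ± 0.13). All 3 hypoxia arrays were above all 3 normoxia arrays without the inhibitor, by 0.28 between the means (SE 0.17, limma adjusted p = 0.577). With the inhibitor the difference between hypoxia and normoxia was 0.41 (SE 0.17, limma adjusted p = 0.342), or 0.24 without normoxia with inhibitor 1. Averaged over both, Efnb2 was 0.35 higher in hypoxia (SE 0.12, 95% interval 0.09 to 0.60, limma adjusted p = 0.123), with the higher value in hypoxia in 6 of 6 same-numbered pairs, and this did not pass. Inhibitor minus none was -0.46 in normoxia (95% interval -0.83 to -0.10, or -0.29 without normoxia with inhibitor 1) and -0.33 in hypoxia (-0.69 to 0.04). The average was -0.40 (SE 0.12, limma adjusted p = 0.959), lower in 5 of 6 comparisons of same-numbered arrays, although the numbers were not taken as pairs for the inhibitor in hypoxia. In normoxia the 3 same-numbered differences were -1.02, -0.39 and 0.02, so replicate 3 showed no lowering there. In hypoxia they were -0.44, -0.41 and -0.14.

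Efna1 encodes ephrin-A1, an A-type ligand that the inflammatory cytokine TNF-alpha induces in endothelium. It lies at chr3:89271730-89280951. Its signals for replicates 1, 2 and 3 were 8.33, 8.34 and 7.89 in normoxia (mean 8.19 ± 0.26, SD, n = 3) and 8.82, 8.69 and 8.48 in hypoxia (8.67 ± 0.17). With the inhibitor they were 7.35, 7.46 and 8.14 in normoxia (7.65 ± 0.43) and 7.88, 7.92 and 7.90 in hypoxia (7.90 ± 0.02). Hypoxia and hypoxia with inhibitor did not overlap, and in normoxia the array normoxia with inhibitor 3 lay above normoxia 3. The inhibitor difference was -0.54 in normoxia (SE 0.20) and -0.77 in hypoxia (SE 0.20, 1.70-fold). Averaged over oxygen it was -0.65 (SE 0.14, 1.57-fold, 95% interval -0.96 to -0.34, limma adjusted p = 0.584), lower in 5 of 6 same-numbered comparisons. By unadjusted p, Efna1 stood at place 15 of 14599 probes in that comparison, Efnb1 at place 25 and Efnb2 at place 83, and none of these passed the adjustment. Hypoxia minus normoxia was 0.48 without the inhibitor (SE 0.20, limma adjusted p = 0.367) and 0.25 with it (SE 0.20, limma adjusted p = 0.688). The latter was 0.10, 0.15 and 0.49 without normoxia with inhibitor 1, 2 and 3 in turn. The average was 0.36 (SE 0.14, limma adjusted p = 0.178).

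Efnb1 encodes ephrin-B1, the other B-type ligand of the set, known for its part in the development of the skull and of neural crest. It lies at chrX:99136061-99149022. Its signals for replicates 1, 2 and 3 were 8.92, 8.90 and 8.89 in normoxia (mean 8.90 ± 0.01, SD, n = 3) and 8.06, 8.24 and 8.49 in hypoxia (8.26 ± 0.21). With the inhibitor they were 9.42, 9.60 and 9.07 in normoxia (9.36 ± 0.27) and 8.63, 8.65 and 9.05 in hypoxia (8.78 ± 0.23). At each inhibitor setting all 3 hypoxia arrays lay below all 3 normoxia arrays. Averaged over the inhibitor, Efnb1 fell by 0.61 in hypoxia on the log2 scale (SE 0.12, 1.53-fold, 95% interval -0.87 to -0.36, limma adjusted p = 0.0124). That it fell in 6 of 6 same-numbered pairs follows from the lack of overlap and adds nothing to it. In that comparison 5.3% of all probes passed in either direction and 2.46% were lower (8.85% and 4.32% with the replicate block, where Efnb1 had limma adjusted p = 0.0147). Within 1 inhibitor setting the same difference did not pass, at -0.64 without it (limma adjusted p = 0.114) and -0.59 with it (limma adjusted p = 0.156). It was uneven over replicates with the inhibitor, at -0.79 and -0.95 for replicates 1 and 2 and -0.02 for replicate 3. Inhibitor minus none was 0.46 in normoxia, 0.51 in hypoxia and 0.49 on average (SE 0.12, 1.40-fold, limma adjusted p = 0.827), and none of these passed. At each oxygen level all arrays with the inhibitor lay above all without it, so the 6 of 6 higher same-numbered comparisons follow from that.

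Whether several of these changes passed turned on replicate 3. Arrays 1 and 2 of a group differed less from each other (SD of the log2 difference 0.231 to 0.25) than from array 3 (0.368 to 0.482). The p-values of a fit without replicate 3 measure that narrower spread. In a fit of replicates 1 and 2 of every group alone, Efna1 was lower with the inhibitor in normoxia (-0.93, limma adjusted p = 0.0279), in hypoxia (-0.86, 0.0278) and on average (-0.90, 0.00336). Efnb1 was then higher with the inhibitor on average (0.55, limma adjusted p = 0.0319) and lower in hypoxia without the inhibitor (-0.76, 0.00669) and with it (-0.87, 0.00332). Efna1 was higher in hypoxia without the inhibitor (0.42, limma adjusted p = 0.0389), with it (0.49, 0.0197) and on average (0.45, 0.00381). Over all probes that fit called 2787 for hypoxia on average and 94 for the inhibitor on average, against 774 and 1 on all arrays. For hypoxia it called 1233 without the inhibitor and 1478 with it, against 148 and 125. For the inhibitor it called 15 in normoxia and 39 in hypoxia, against 0 and 0. Efnb2 did not pass in it, at 0.37 for hypoxia (limma adjusted p = 0.0573) and -0.56 for the inhibitor (0.0928). Without normoxia with inhibitor 3 alone, Efna1 passed for the inhibitor on average (-0.77, limma adjusted p = 0.041) and for hypoxia on average (0.48, 0.0252), as Efnb2 did for hypoxia (0.42, 0.044). Calls over all probes were not counted in that fit. The lower Efnb1 in hypoxia on average passed in all 20 alternatives, from -0.81 to -0.55.

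**Figure D2:**
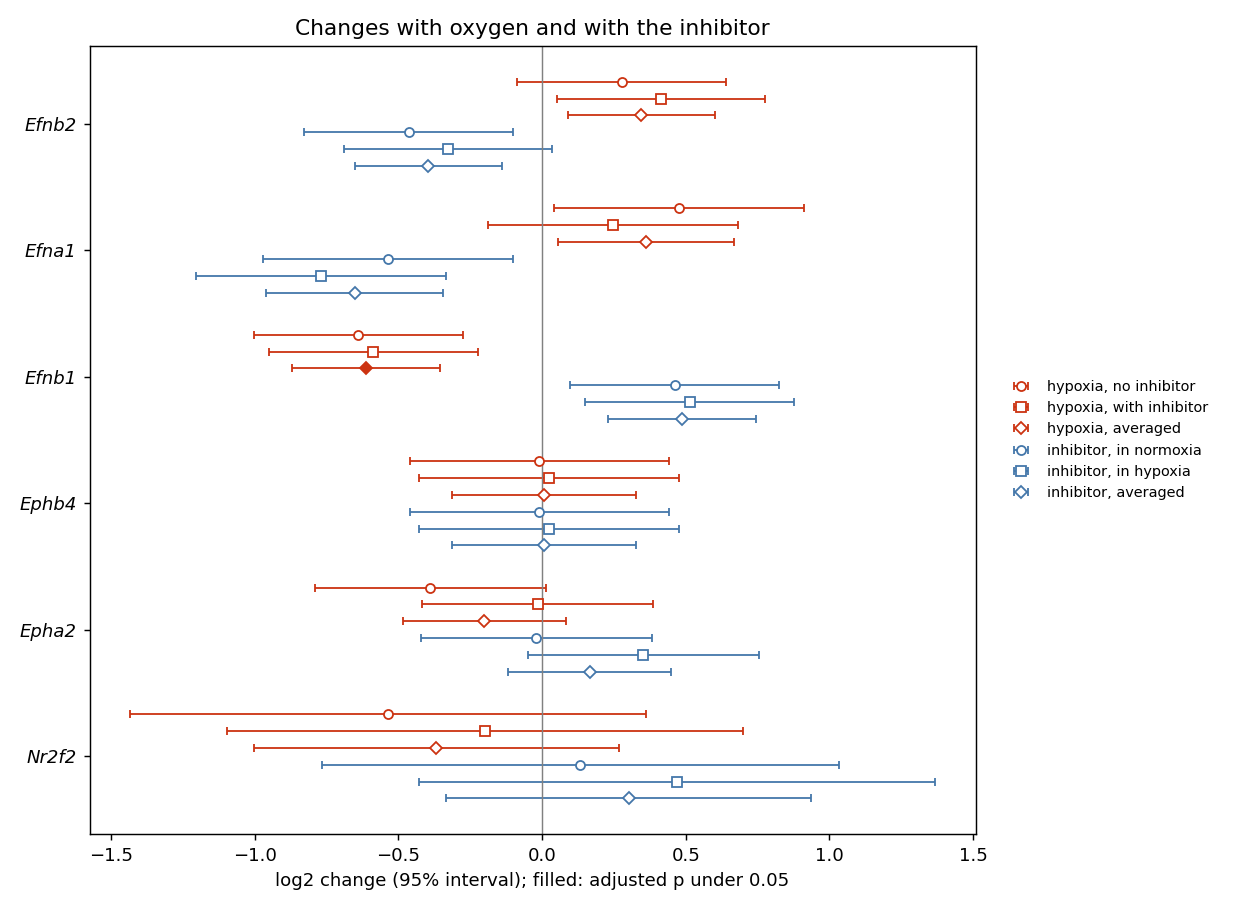
Log2 change of the 6 genes (horizontal axis) with its 95% interval for hypoxia against normoxia (red) and inhibitor against none (blue), at each level of the other factor and averaged over it. The filled point is the 1 change with an adjusted p under 0.05, the lower Efnb1 in hypoxia (-0.61), and the intervals of Ephb4 lie across 0 throughout.

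The inhibitor comparisons can be read beside Hey1, a direct Notch target. Its signals for replicates 1, 2 and 3 were 9.24, 9.19 and 8.10 in normoxia and 6.72, 6.76 and 7.43 with the inhibitor. In hypoxia they were 9.18, 9.15 and 9.13, and 6.84, 6.59 and 7.27 with the inhibitor, so the arrays with the inhibitor lay below the others at both oxygen levels. Hey1 was the only 1 of 14599 probes (0.00685%) to pass in the averaged inhibitor comparison (-2.06, SE 0.21, limma adjusted p = 0.00806, or 0.0797 with the replicate block). Its same-numbered difference in normoxia was -2.53, -2.43 and -0.66, so replicate 3 was the least changed there as it was for the ephrins. Within 1 oxygen level 0% of the probes passed in normoxia and 0% in hypoxia. Unadjusted p was under 0.05 for 2.05% and 4.05% of the probes. Of the 6 members, 3 (the ephrins) had an unadjusted p under 0.05 in normoxia and 2 in hypoxia. The ephrins had differences of the same sign at both oxygen levels. The difference of the inhibitor effect between oxygen levels was 0.14 for Efnb2 (SE 0.23), -0.23 for Efna1 (SE 0.28) and 0.05 for Efnb1 (SE 0.24), and 0 of 6 members passed, as 0% of all probes did.

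**Figure D3:**
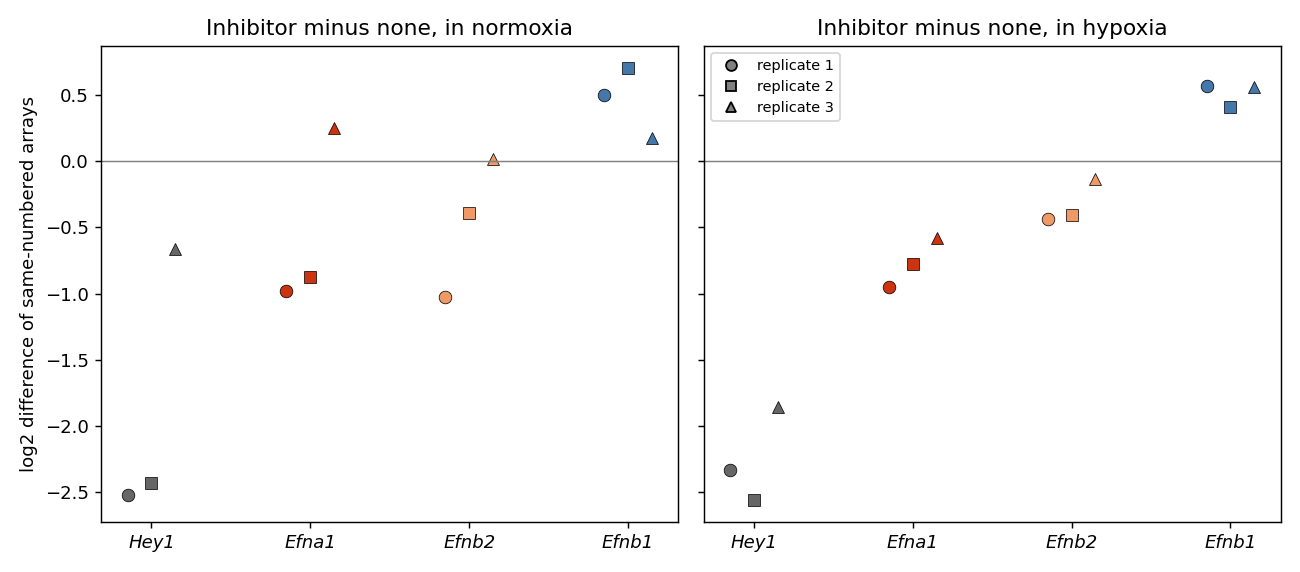
Log2 difference with and without the inhibitor between same-numbered arrays (vertical axis), in normoxia and in hypoxia, for the Notch target Hey1 and the 3 ephrins. Each point is 1 comparison of same-numbered arrays, and replicate 3 in normoxia (triangle, left) is nearest to 0 for Hey1 (-0.66), while Efna1 (0.25) and Efnb2 (0.02) lie above 0 there.

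Over the arrays, the gene nearest in pattern to Efnb2 was Efna1 among 9878 other genes (Pearson correlation 0.893 over 12 arrays). Depp1, a FoxO target known from endothelium (0.867), and Esm1, a marker of tip cells (0.866), followed. Once each replicate's mean was taken out, Efna1 stood at place 3 (0.907), Depp1 at place 7 (0.885) and Esm1 at place 9 (0.878). For Efna1 the order was Ddit4, a stress and hypoxia response gene (0.949), Esm1 (0.905) and Efnb2 (0.893). Ddit4 itself changed on average by 0.17 with hypoxia (limma adjusted p = 0.238) and by -0.29 with the inhibitor (limma adjusted p = 0.864). Efnb1 was nearest to Idh2 (0.939), App (0.928) and Lrrc75a (0.913). Ephb4 was nearest to Bcl11b (0.912), Haspin (0.911) and Ehd2 (0.909), Epha2 to Zdhhc13 (0.949), Lrig3 (0.934) and Bdnf (0.932), and Nr2f2 to Slc26a10 (0.926), Adgre5 (0.922) and Adamts1 (0.919). These correlations describe arrays that share the 4 conditions and the split of replicate 3.

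**Figure D4:**
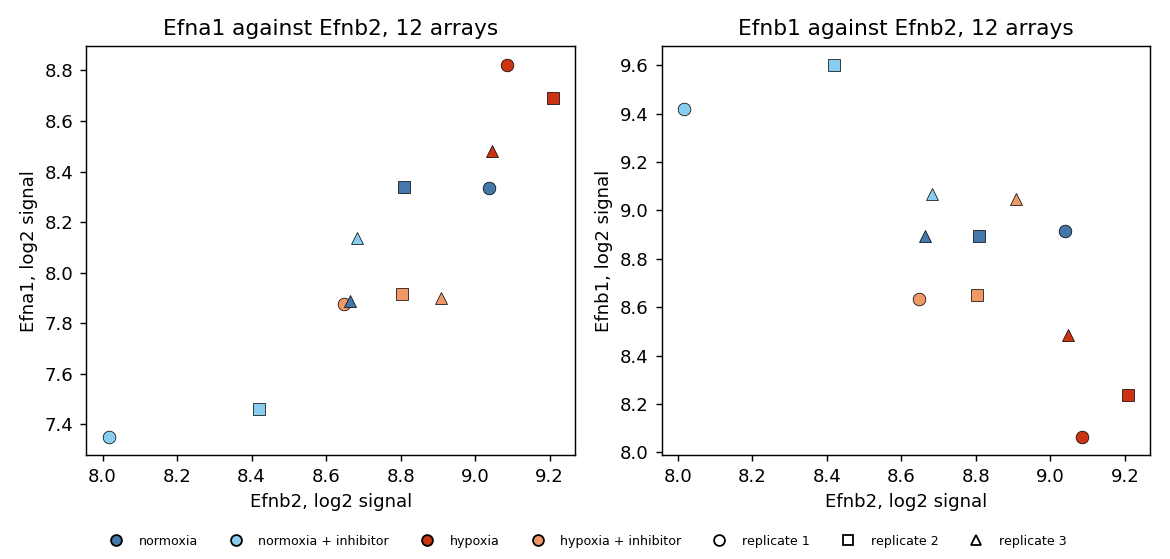
Log2 signal of Efna1 (left) and Efnb1 (right) against that of Efnb2 on the 12 arrays. Colour gives the group and shape the replicate number. Efna1 tends to be high where Efnb2 is high, and Efnb1 tends to be low there. By group means hypoxia and normoxia with inhibitor lie at the ends. The array normoxia with inhibitor 3 (Efnb2 8.68, Efna1 8.14) lies above normoxia 3 (8.66 and 7.89).

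The promoters of the 3 ephrins are shown because Notch acts through the DNA-binding protein RBPJ and low oxygen through hypoxia-inducible factor. Each stretch holds the 250 bases before the RefSeq gene start in GRCm38.p6, 5′ to 3′ on the strand of the gene, at chr8:8661243-8661492 (minus strand) for Efnb2, chr3:89280952-89281201 (minus strand) for Efna1 and chrX:99135811-99136060 (plus strand) for Efnb1. Capitals mark matches to TGGGAA, the core RBPJ motif, or to ACGTG, a form of the core hypoxia response element, on either strand. The other form of that core, GCGTG, is not marked, and its share over all promoter windows was not counted. It occurs in the Efnb1 stretch and in the windows of Epha2, Ephb3 and Ephb2, and not in the Efnb2 and Efna1 stretches.
Efnb2: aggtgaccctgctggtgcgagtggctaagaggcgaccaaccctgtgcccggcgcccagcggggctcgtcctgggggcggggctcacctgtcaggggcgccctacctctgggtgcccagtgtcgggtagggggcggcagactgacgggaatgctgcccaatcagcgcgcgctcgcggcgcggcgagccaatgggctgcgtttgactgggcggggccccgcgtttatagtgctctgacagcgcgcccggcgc
Efna1: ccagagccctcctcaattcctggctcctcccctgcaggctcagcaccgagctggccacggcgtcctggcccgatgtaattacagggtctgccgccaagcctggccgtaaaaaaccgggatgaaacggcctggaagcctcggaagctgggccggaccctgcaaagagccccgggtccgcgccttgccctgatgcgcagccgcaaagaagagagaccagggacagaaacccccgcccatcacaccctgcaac
Efnb1: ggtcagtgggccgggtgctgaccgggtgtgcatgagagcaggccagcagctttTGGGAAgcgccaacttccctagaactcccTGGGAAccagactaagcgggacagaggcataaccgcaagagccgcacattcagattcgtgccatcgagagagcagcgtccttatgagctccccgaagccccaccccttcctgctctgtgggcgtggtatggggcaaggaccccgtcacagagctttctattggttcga
The Efnb1 stretch holds 2 TGGGAA matches, at bases -197 to -192 and -168 to -163 from the gene start, and no ACGTG. The Efnb2 and Efna1 stretches hold neither, nor does a second annotated start of Efna1. Ephb3 has 1 ACGTG, and the windows of Ephb4, Epha2, Nr2f2 and Ephb2 have neither TGGGAA nor ACGTG. Of 32536 promoter windows of this length, 21.6% hold TGGGAA and 16.7% hold ACGTG. A match describes letters and shows no binding, and no match concerns these windows alone.

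Of the receptors, Ephb4, the venous partner of ephrin-B2, had close to equal means in all 4 groups. Its signals for replicates 1, 2 and 3 were 7.20, 7.64 and 8.01 in normoxia (mean 7.61 ± 0.41, SD, n = 3) and 7.46, 7.58 and 7.77 in hypoxia (7.60 ± 0.16). With the inhibitor they were 7.48, 7.49 and 7.84 in normoxia (mean 7.61 ± 0.20) and 7.82, 7.75 and 7.31 in hypoxia (7.63 ± 0.27). All groups overlapped. The change was 0.01 with hypoxia and 0.01 with the inhibitor on average (SE 0.15 for each). Both 95% intervals ran from -0.31 to 0.33, so a change within that range in either direction cannot be told from 0. These intervals are unadjusted and do not give the size of change that the adjusted test could detect with 12 arrays. Ephb4 lies at chr5:137350109-137374522.

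Epha2, a receptor for ephrin-A1 known in angiogenesis and in epithelia, lies at chr4:141301221-141329384. Its signals for replicates 1, 2 and 3 were 8.54, 8.61 and 8.46 in normoxia (mean 8.53 ± 0.07, SD, n = 3) and 8.24, 8.13 and 8.07 in hypoxia (8.15 ± 0.09). With the inhibitor they were 8.42, 8.62 and 8.50 in normoxia (8.51 ± 0.10) and 8.17, 8.31 and 9.01 in hypoxia (8.50 ± 0.45). Without the inhibitor all hypoxia arrays lay below all normoxia arrays, by -0.39 (SE 0.18, limma adjusted p = 0.442), which did not pass. With the inhibitor the difference was -0.01 (SE 0.18), and by pairs -0.25, -0.31 and 0.52, the last from hypoxia with inhibitor 3. Leaving out that array, the average over the inhibitor was -0.33 (limma adjusted p = 0.0252), against -0.20 with it (SE 0.13, limma adjusted p = 0.437) and -0.12 with hypoxia with inhibitor 1 left out. The array left out for the first value is the array that went the other way, and calls over all probes were not counted in that fit. Replicates 1 and 2 alone gave -0.33 for Epha2 (limma adjusted p = 0.0246), in a fit that called 2787 probes in that comparison, against 774 on all arrays.

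Nr2f2 lies at chr7:70351946-70366746. Its detected probe gave 6.17, 6.19 and 7.59 in normoxia for replicates 1, 2 and 3 (mean 6.65 ± 0.82, SD, n = 3) and 5.64, 5.70 and 6.99 in hypoxia (6.11 ± 0.76). With the inhibitor the signals were 6.59, 6.75 and 7.01 in normoxia (6.78 ± 0.21) and 6.96, 6.40 and 6.39 in hypoxia (6.58 ± 0.33). Replicate 3 was highest in 3 groups and lowest in hypoxia with inhibitor. Hypoxia minus normoxia without the inhibitor was -0.53, -0.48 and -0.60 by same-numbered pairs, with little spread, but the groups overlapped and the unpaired test gave -0.54 (SE 0.41, limma adjusted p = 0.688, or 0.473 with the replicate block). Hypoxia 1 and 2, at 5.64 and 5.70, lay near the lowest detected signal (5.08 to 5.24), where the offset of 16 used in processing narrows differences. With the inhibitor the pairs differed by 0.37, -0.35 and -0.62. For the inhibitor in hypoxia the same-numbered differences were 1.32, 0.70 and -0.61, and the change was 0.47 (SE 0.41), with an interval of -0.43 to 1.37. Single arrays moved both values: the oxygen difference was -0.06 with normoxia 3 left out and -0.98 with hypoxia 3 left out. With hypoxia 1 or hypoxia 2 left out it was -0.30 or -0.33. The inhibitor difference in hypoxia was 0.91 without hypoxia 3, 0.23 without hypoxia 1, 0.26 without hypoxia 2 and 0.28 without hypoxia with inhibitor 1. None of these passed.

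In counts, 0 of 6 members passed for hypoxia without the inhibitor, where 1.01% of all probes passed (2.19% with the replicate block), or with it, where 0.856% did (1.76% with the block). In the first of these comparisons 2 members had all hypoxia arrays above all normoxia arrays (Efnb2 and Efna1), as 9.97% of all probes did, and 2 had them all below (Efnb1 and Epha2), as 10.1% did. Together that is 4 of 6 members beside 20% of the probes. With the inhibitor present, 1 of 6 did not overlap (Efnb1, all lower), where 7.12% of the probes were all higher, 8.28% all lower and 15.4% either. For the inhibitor in normoxia 1 of 6 did not overlap (Efnb1, all higher), where 3.19% of the probes were all higher, 2.86% all lower and 6.06% either. In hypoxia it was 3 of 6, Efnb1 all higher (4.16% of the probes) and Efnb2 and Efna1 all lower (4.9%), beside 9.06% either. When both settings of the other factor were joined, the 6 arrays against 6 overlapped for every measured member, and they did not for 4.71% of the probes with oxygen (2.17% all higher, 2.54% all lower) and 0.178% with the inhibitor (0.089% each way). Unadjusted p was under 0.05 for 2 of 6 members for hypoxia without the inhibitor (11.9% of the probes), 2 with it (11.7%) and 3 on average (19.7%). For the inhibitor on average it was 3 of 6 (4.34%), and for the interaction 0 of 6 (1.8%). The median change of the 6 was -0.20 for hypoxia without the inhibitor, beside -0.01 over all genes, and 0.09 for the inhibitor on average, beside 0.00.

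Of the rest of the family, 15 other ephrins and Eph receptors were listed and all have a probe. The 8 that were measured are Efna4, Efna5, Efnb3, Epha1, Epha3, Epha6, Epha7 and Ephb1, and 0 of them passed in any comparison. Their median change was -0.01 with hypoxia and 0.01 with the inhibitor. With the replicate block Epha7 passed as lower in hypoxia on average (limma adjusted p = 0.0485, against 0.257 without the block). It was detected on 5 arrays, 1 of 6 in hypoxia and 4 of 6 in normoxia, so no size is given. The other 7 (Efna2, Efna3, Epha4, Epha5, Epha8, Epha10 and Ephb6) were detected on too few arrays.

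Among 37 measured signalling partners of Ephs and ephrins, 2 fell with hypoxia on average and 0 rose, and 0 passed for the inhibitor. Over all measured genes 2.67% fell and 3.08% rose in that comparison. Both are PDZ-domain adaptors that bind the tail of B-type ephrins, and that shared trait was not tested over the list. Grip1 fell by 0.78 on the log2 scale (SE 0.11, limma adjusted p = 0.00254). Its signals for replicates 1, 2 and 3 were 8.62, 8.59 and 8.54 in normoxia and 7.77, 7.76 and 7.41 in hypoxia, with no overlap, and without the inhibitor it fell by 0.94 (limma adjusted p = 0.0209). With the inhibitor they were 8.61, 8.52 and 8.64 in normoxia and 7.89, 7.69 and 8.32 in hypoxia. Pick1 fell by 0.33 (SE 0.08, limma adjusted p = 0.0448). With the replicate block the kinase gene Fyn also passed (0.47, limma adjusted p = 0.0173, against 0.0707). The median of the partners was 0.06.

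Of 26 measured arterial genes, 4 rose and 1 fell with hypoxia on average (5 and 2 with the replicate block), where 3.08% and 2.67% of all measured genes did, and the median change was 0.11. Those that rose are Depp1 (2.30, limma adjusted p = 0.00563), Sema3g, a semaphorin of arteries (limma adjusted p = 0.00792), Gja5, a connexin of arterial endothelium (2.10, limma adjusted p = 0.00886), and Nrarp, a Notch target (1.13, limma adjusted p = 0.0358). Sema3g was detected on 5 of 6 hypoxia arrays and on 2 of 6 normoxia arrays, neither of them with the inhibitor, so no size is given. With the replicate block Cxcl12, a chemokine (0.53, limma adjusted p = 0.0051, against 0.094), and Foxc2, a forkhead factor (-0.85, 0.00235, against 0.149), passed too. The block also called Foxc2 for hypoxia with the inhibitor (limma adjusted p = 0.0123, against 0.356) and Cxcl12 for hypoxia without it (0.0365, against 0.344). Nrp1, an arterial VEGF co-receptor, fell by 0.45 (limma adjusted p = 0.0339). With the inhibitor the median was -0.22 and 6 of 26 had a positive change, and Hey1 was the 1 gene called. Of 15 measured venous and lymphatic genes, Vwf, which encodes von Willebrand factor, rose by 1.22 (limma adjusted p = 0.0071) and Selp, an endothelial adhesion gene, by 0.66 (limma adjusted p = 0.0317). Nr2f1, a close relative of Nr2f2, was at 5.52, 5.36 and 5.75 in normoxia without the inhibitor, near the lowest detected signal. It was not detected on any hypoxia array or on any array of normoxia with inhibitor. It was at least 1.31-fold lower in hypoxia without the inhibitor (limma adjusted p = 0.0381). With the inhibitor in normoxia it was at least 1.3-fold lower, in a comparison that no probe passed. Among haematopoietic markers Laptm5 rose and the globin genes Hba-x and Hbb-y fell with hypoxia on average, and with the replicate block Coro1a passed as higher (0.83, limma adjusted p = 0.0015, against 0.0646). The block also called Coro1a as higher at each inhibitor setting and Hbb-y as lower without the inhibitor. The summed signal of the 10 measured haematopoietic markers was 6833 to 11748 over the arrays. Of 8 mural and smooth muscle markers 5 were measured and 0 passed, with a summed signal of 41010 to 72571. All 5 had a higher mean with the inhibitor at both oxygen levels (median 0.23 on average), and 2 of 13 endothelial markers did on average (median -0.11). Of the mural markers Cnn1, Myh11 and Rgs5 were detected on too few arrays. Of 10 endoderm and epithelial markers 5 were measured and 0 passed, with a summed signal of 4598 to 16290, and Afp, Ttr, Apoa1 and Foxa2 were detected on too few arrays. With the replicate block Des and Krt19 of these lists were higher in hypoxia on average (limma adjusted p = 0.0138 and 0.0173). The part of such cells in the member values was not tested.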

How the data were processed

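The 12 samples fall into 4 groups of 3 by their titles. Per the file headers, the deposited table of non-normalized values pairs a linear intensity with a detection p-value for every probe and array. The authors had already subtracted background from this intensity (23.3% of the values are negative), and the submitters' processing notes name BeadStudio. An alternative was the authors' processed intensity table, which has a floor of 20 that 45.5 to 48% of its values share.

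In limma 3.58.1 (R 4.3.3), background was modelled from the detection p-values (nec, offset 16), and signals were quantile normalized and logged to base 2. The platform annotation gives 1 symbol to 23978 of 25697 probes, several to 0 and none to 1719. Testing was limited to the 14599 probes (9879 named genes) whose detection p-value was below 0.05 on 3 or more arrays. A gene that no array of a group detected has its fold set against the lowest detected signal, given as at least. The model held 4 group means over all arrays (8 residual degrees of freedom), with two-sided moderated tests, and p-values were adjusted by Benjamini-Hochberg over all tested probes, at a threshold of 0.05. Averages over the other factor and the interaction were contrasts of the same model. Intervals are 95% and unadjusted. Because nothing in the labels says what separates replicates, p-values measure only the spread between these samples. The log2 difference between arrays 1 and 2 of a group had a standard deviation of 0.231 to 0.25, and that between either and array 3 of 0.368 to 0.482. The number of arrays limits precision.

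The members and lists were chosen with earlier results of these data known. All 8 members are given, then up to 4 called genes of each list, by smallest adjusted p, and for each member the 3 genes of highest correlation. Genes called only with the replicate block were named after their values were seen. Whether replicate numbers pair the samples was checked by correlating array deviations from group means between arrays of the same number. These lay at 0.30 to 0.58 (hypoxia, no inhibitor), 0.11 to 0.25 (hypoxia, inhibitor present), 0.38 to 0.64 (inhibitor, normoxia) and 0.03 to 0.08 (inhibitor, hypoxia). With every value above 0.1 in the first 3, the numbers were taken as pairs there and not in the last. Array 1 against array 2 lay nearly as high, at 0.36 and 0.38 for the inhibitor in normoxia. For hypoxia these crossed values were 0.29 and 0.30 without the inhibitor and 0.17 and 0.10 with it. The check thus reflects the split of replicate 3, and it cannot show that 1 pairs with 1 or 2 with 2. The main model has no replicate block, and blocked values stand beside it where they change a call. Promoter sequences and gene positions come from RefSeq (GRCm38.p6), matched by symbol for all 8 genes. Scripts were tested on simulated data. Plots used matplotlib 3.10.9 (Python 3.11.15).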

Additional observations from a re-analysis of the deposited data

How the results depend on the processing

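The 42 changes of the 6 members were refitted under other background, scaling, filter, variance and array choices, giving 864 values. Of these, 850 stayed on their side of the threshold, 14 passed newly, 0 lost a call and 0 changes with an unadjusted p under 0.05 reversed. The sign turned in 54 values, all of changes with a larger unadjusted p. In replicates 1 and 2 of every group alone, the members called were 2 for hypoxia without the inhibitor, 2 for hypoxia with it, 1 for the inhibitor in normoxia, 1 in hypoxia, 3 for hypoxia on average and 2 for the inhibitor on average, against 0, 0, 0, 0, 1 and 0. Leaving out 1 array at a time gave 1 to 3 members for hypoxia on average and 0 to 1 for the inhibitor on average. Calls over all probes were not counted in those fits, so these member counts have no share over all probes beside them.

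With the replicate block 1 member was called for hypoxia on average, as without it, and 0 in the other comparisons, so the block changed no member's call. Over all probes it raised the calls from 148 to 319 for hypoxia without the inhibitor, from 125 to 257 with it and from 774 to 1292 on average, and the inhibitor calls on average went from 1 to 0. Replicates 1 and 2 alone gave 1233, 1478 and 2787 for hypoxia, 15 and 39 for the inhibitor in normoxia and hypoxia (against 0 and 0) and 94 on average. The authors' table gave 4 and a mean-variance trend gave 1 for the inhibitor in hypoxia, and raised negative values without a background model gave 79 for hypoxia with the inhibitor. The cause was not tested. The chip as a block was not run, since the headers name no chip. Signals near background limit Ephb3, 2 probes of Nr2f2 and 7 other family genes.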
